A study of Homo sapiens with 2 samples.

Results

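The mRNAs of 52 genes for DNA damage signalling and DNA repair were followed in cells of the human embryonic kidney line HEK293, transfected with a FLAG-tagged R338W form of TOP3B. TOP3B is a topoisomerase able to act on both DNA and RNA, and the series set out to identify RNAs held by it. RNA recovered with an anti-FLAG antibody (RIP, RNA immunoprecipitation) was compared with the input lysate of the same kind of transfected cells, which had no antibody step. Both samples were at passage 15, both carried the R338W construct, and each group held 1 library. No RIP of untagged cells was part of the comparison, so RNA held by beads or antibody alone cannot be told apart from RNA held by TOP3B. The 52 genes were taken by their symbols from a table of 13075 genes, and all 52 were found and had at least 5 FPKM (fragments scaled to transcript length and to the total of their library) in at least 1 library.

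Cells answer broken or blocked DNA with a relay of kinases and adaptor proteins that halt the cell cycle and call in repair. Homologous recombination copies the intact sister sequence, end joining ligates broken ends directly, and the Fanconi pathway opens crosslinks between the strands. Mismatch repair corrects replication errors, and base and nucleotide excision repair cut out damaged bases or short damaged stretches. RecQ helicases unwind DNA structures in several of these pathways. HEK293 cells divide rapidly, and dividing cells use these pathways at each round of replication.

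The estimated depth was about 24500000 fragments for the RIP and 15100000 for the input. TOP3B, the bait, stood at 30666 FPKM in the RIP against 15062 FPKM in the input, values that do not separate the transfected from the chromosomal copy. Over the 11990 genes with at least 5 FPKM in either library, the median log2((RIP + 1)/(input + 1)), called the ratio below, was 0.13. This scale adds a pseudocount of 1 FPKM and understates differences of low genes. Without replicates, each difference is between 2 libraries and carries no replicate check, so no p-value or SD was computed. Intervals given with a ratio are 95% exact binomial intervals from estimated fragments, and cover counting error only. The fragments were estimated with the median annotated transcript length of each gene. Intervals are thus too wide for genes whose counted transcripts are longer than that median, and too narrow where they are shorter. TP53BP1, with a reference transcript of 10384 bases, had only 550 estimated RIP fragments.

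Most of the repair and damage-signalling mRNAs were modestly higher in the RIP. Of the 52 members, 43 (82.7%) had a ratio above 0, against 58.7% of all genes and 60.8% of protein-coding genes. The members were chosen with earlier results of these data known, so these shares are descriptive. Some of these 43, such as CHEK2 and PARP1, had counting intervals that included 0. Relative to the median gene 37 members (71.2%) were higher, against 50% of all genes. Their median ratio was 0.50, with quartiles of 0.08 and 0.73, whereas all genes had quartiles of -0.25 and 0.50. The ratio was above the upper quartile of all genes in 26 members and below the lower quartile in 5. At the 2-fold limit 5 members lay above the input and 0 below it, against 4.9% higher and 2.5% lower among all genes and 3.65% and 0.533% among protein-coding genes. The 5 higher members were 9.6% of the 52, above these shares, but a count this small is not read as a result about the members. At a 1.5-fold limit 21 members (40.4%) were higher and 3 (5.8%) lower, against 19.9% and 10.2% of all genes and 19.2% and 7.01% of protein-coding genes.

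**Figure D1:**
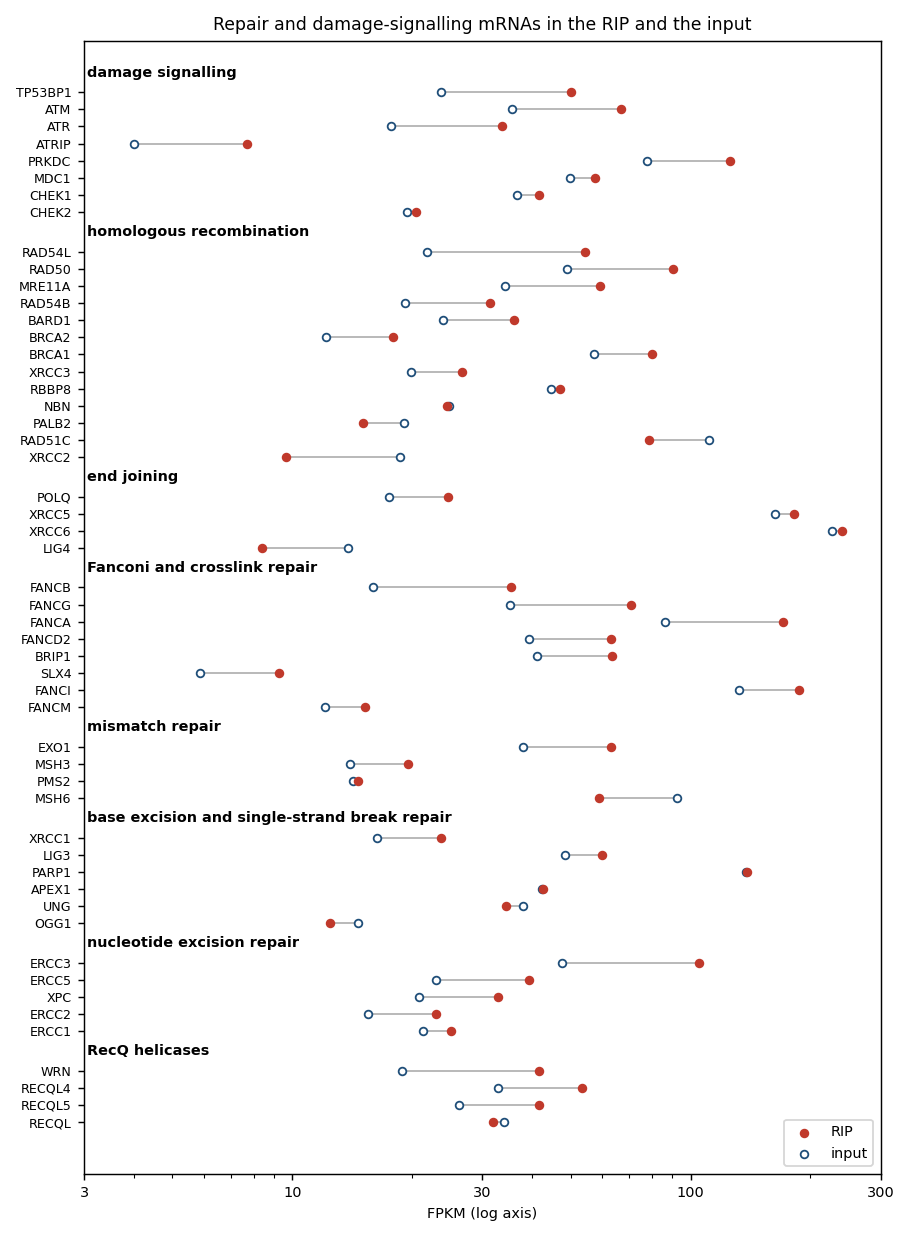
FPKM of each of the 52 members on a log axis, grouped by role and ordered within a role by the ratio, with the RIP as filled red points and the input as open blue points, 1 library each. The red point lies to the right of the blue point in 43 members, and the widest gaps towards the input are those of XRCC2, LIG4 and MSH6.

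The 5 members past the upper 2-fold limit came from 5 different roles. RAD54L (ENSG00000085999.11), a DNA motor protein of homologous recombination, stood at 54.2 FPKM in the RIP against 21.8 FPKM in the input, a ratio of 1.28 (1.06 to 1.5). ERCC3 (ENSG00000163161.12), the XPB helicase of the transcription and repair factor TFIIH, stood at 105 FPKM in the RIP against 47.7 FPKM in the input, a ratio of 1.13 (1.05 to 1.21). FANCB (ENSG00000181544.13), a subunit of the Fanconi core ubiquitin ligase encoded on the X chromosome, stood at 35.4 FPKM in the RIP against 15.9 FPKM in the input, a ratio of 1.10 (0.99 to 1.22). In each of these the RIP value was above the input value by more than the counting error, although the lower end for FANCB lay just under the 2-fold limit. WRN (ENSG00000165392.9), the helicase lost in Werner syndrome, stood at 41.6 FPKM in the RIP against 18.8 FPKM in the input, a ratio of 1.10 (1.01 to 1.2). TP53BP1 (ENSG00000067369.13), a chromatin-bound adaptor that favours end joining, stood at 50.2 FPKM in the RIP against 23.6 FPKM in the input, a ratio of 1.06 (0.81 to 1.31). Just outside the limit was FANCG, another core subunit, at 71.0 FPKM in the RIP against 35.1 FPKM in the input, a ratio of 0.99. Without the pseudocount this is 2.02-fold, and with a pseudocount of 0.1 FPKM the ratio of FANCG was 1.01 and 6 members passed. Relative to the median gene, or after rescaling the libraries to equal summed FPKM without abundant RNA classes, RAD54L alone remained above the limit, at 1.15 and 1.12. With a pseudocount of 5 FPKM, RAD54L and ERCC3 remained above it, at 1.15 and 1.07. Centring and rescaling lower ratios by 0.13 and by about 0.16 log2. The effect of leaving out abundant RNAs depends on how it is done. Dividing each library by its estimated share of fragments left, a setting added after the data were seen, shifted ratios by -0.01 and kept 5 members past the limit.

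The members at the other end were lower in the RIP by less than 2-fold. XRCC2 (ENSG00000196584.2), a homologous recombination factor, had the lowest ratio, with 9.65 FPKM in the RIP against 18.6 FPKM in the input, a ratio of -0.88 (-1.0 to -0.76). LIG4 (ENSG00000174405.13), the ligase of end joining, stood at 8.40 FPKM in the RIP against 13.8 FPKM in the input, a ratio of -0.65 (-0.78 to -0.52). MSH6 (ENSG00000116062.14), a mismatch sensor, stood at 58.8 FPKM in the RIP against 92.4 FPKM in the input, a ratio of -0.64 (-0.72 to -0.57). For all 3 the interval lay below 0, and XRCC2 passed the 2-fold limit relative to the median gene, at -1.01, and after rescaling to equal summed FPKM, at -1.03. RAD51C, which shares a recombination complex with XRCC2, stood at 78.8 FPKM in the RIP against 112 FPKM in the input, a ratio of -0.50. PALB2, which bridges BRCA1 and BRCA2, stood at 15.1 FPKM in the RIP against 19.1 FPKM in the input, a ratio of -0.32.

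The spliced sequences of members at either end are shown because the number of coding exons had the highest rank correlation with the members' ratio among the annotated features compared below. Each entry is 1 internal coding exon in capitals, the one nearest to the transcript's median internal coding exon length, with 15 bases of each neighbouring exon in lower case. The sequences were read 5′ to 3′ from GENCODE release 29 transcripts on GRCh38, and the coordinates are those of the exon in capitals. The exon of RAD54L lies at chr1:46261261-46261385, plus strand, that of ERCC3 at chr2:127289337-127289501, minus strand, that of FANCB at chrX:14859182-14859334, minus strand and that of TP53BP1 at chr15:43479859-43480017, minus strand.
RAD54L: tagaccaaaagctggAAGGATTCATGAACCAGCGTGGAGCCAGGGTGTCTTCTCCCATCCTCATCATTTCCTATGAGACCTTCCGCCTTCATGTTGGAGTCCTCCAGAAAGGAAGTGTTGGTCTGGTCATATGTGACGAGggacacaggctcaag
ERCC3: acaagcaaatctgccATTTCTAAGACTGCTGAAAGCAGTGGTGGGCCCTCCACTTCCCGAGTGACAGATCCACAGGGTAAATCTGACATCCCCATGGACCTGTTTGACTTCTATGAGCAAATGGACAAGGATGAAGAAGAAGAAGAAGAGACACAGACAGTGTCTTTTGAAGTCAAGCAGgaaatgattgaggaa
FANCB: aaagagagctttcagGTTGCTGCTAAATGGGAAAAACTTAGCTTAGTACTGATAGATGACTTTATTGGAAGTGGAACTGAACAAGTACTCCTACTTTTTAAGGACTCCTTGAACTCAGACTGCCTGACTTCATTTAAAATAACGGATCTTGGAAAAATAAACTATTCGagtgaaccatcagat
TP53BP1: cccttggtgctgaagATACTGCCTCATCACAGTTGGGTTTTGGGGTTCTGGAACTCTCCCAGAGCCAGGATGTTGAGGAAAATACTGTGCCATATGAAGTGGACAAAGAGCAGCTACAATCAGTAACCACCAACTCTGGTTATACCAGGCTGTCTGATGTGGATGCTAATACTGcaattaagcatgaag

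Among the members with the lowest ratios, the exon shown for XRCC2 lies at chr7:152660701-152660782, minus strand, that of MSH6 at chr2:47790927-47791123, plus strand and that of RAD51C at chr17:58709859-58709990, plus strand. LIG4 has no internal coding exon. The first 60 coding bases of LIG4 are shown instead, with the start codon in capitals, at chr13:108211209-108211268, minus strand.
XRCC2: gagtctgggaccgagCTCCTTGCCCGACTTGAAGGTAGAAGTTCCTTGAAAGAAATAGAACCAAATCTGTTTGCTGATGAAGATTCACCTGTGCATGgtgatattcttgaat
MSH6: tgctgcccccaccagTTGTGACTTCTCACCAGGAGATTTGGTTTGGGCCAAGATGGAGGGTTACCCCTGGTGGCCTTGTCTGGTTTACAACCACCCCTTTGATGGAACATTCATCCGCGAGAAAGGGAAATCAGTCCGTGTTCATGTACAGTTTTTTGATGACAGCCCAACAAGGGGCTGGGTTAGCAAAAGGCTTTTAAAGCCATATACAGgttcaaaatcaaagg
RAD51C: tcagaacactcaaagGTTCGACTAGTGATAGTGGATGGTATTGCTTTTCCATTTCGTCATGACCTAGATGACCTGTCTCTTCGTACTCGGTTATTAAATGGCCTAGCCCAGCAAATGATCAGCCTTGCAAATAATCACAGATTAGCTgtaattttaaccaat
LIG4: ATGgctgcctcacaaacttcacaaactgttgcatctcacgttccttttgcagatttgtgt
The exons shown for RAD54L, ERCC3, FANCB and TP53BP1 are 125, 165, 153 and 159 bases long, and those for XRCC2, MSH6 and RAD51C are 82, 197 and 132 bases long. The members shown differ more in the longest uninterrupted coding stretch. In LIG4 all 2736 coding bases, stop codon included, lie in 1 exon, in MSH6 a single exon holds 2545 coding bases, and in XRCC2 722. In RAD54L the longest such stretch is 289 bases and in ERCC3 315, but RAD51C, at the low end, has only 259. FANCB and TP53BP1, at the high end, have 951 and 1327, both longer than that of XRCC2.

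The number of coding exons and the ratio went together among the members. The reference transcript of each gene was the one with the longest coding sequence in GENCODE. Across the 52 members Spearman's rho between coding exons and ratio was 0.52 and Pearson's r on log2 exons was 0.61. Across 10513 protein-coding genes rho was 0.56. These are correlations across genes of the same 2 libraries, which are not independent replicates, and are given as a description. Coding length gave a rho of 0.38 in the members and 0.51 in all coding genes. The noncoding part of the transcript gave -0.09 and -0.06, GC content 0.08 and 0.24, and the level in the input -0.07 and -0.09. Whole transcript length gave 0.28 and 0.26, the mean length of a coding exon -0.13 and -0.02, the number of annotated transcripts 0.03 and 0.32, and annotated retained-intron transcripts 0.27 and 0.36. In the 71 further repair genes described below, rho was 0.44 for coding exons, 0.42 for coding length and 0.44 for retained-intron transcripts, so the features did not separate there. The libraries hold 1 value per gene, so the part that transcript choice or intron-containing RNA has in this pattern was not tested.

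**Figure D2:**
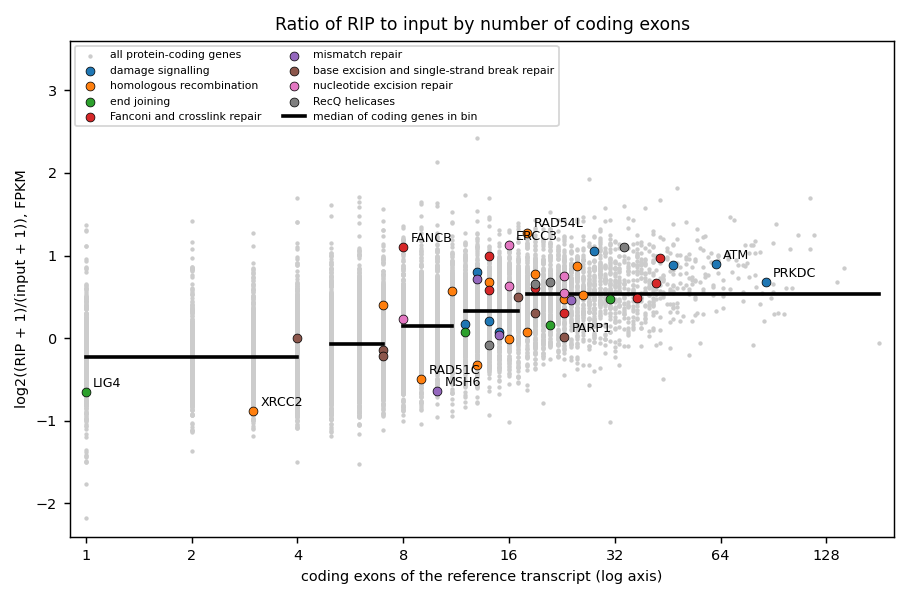
Ratio of RIP to input against the number of coding exons of the reference transcript on a log axis, for all 10513 protein-coding genes in grey and the 52 members in colour by role. Black bars are the medians of all coding genes in 5 bins of exon number, which run from -0.23 for 1 to 4 exons to 0.54 for 18 or more, and the members lie on both sides of them.

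The members are many-exon genes, with a median of 16.5 coding exons against 9 among all coding genes. In the bin of 18 or more coding exons, which held 25 of the 52 members and 2082 of the 10513 coding genes, the median ratio was 0.65 for the members and 0.54 for all coding genes. In the bin of 12 to 17 exons the 16 members had a median of 0.35 and all coding genes 0.33. In the bin of 8 to 11 exons the 5 members had 0.23 and all coding genes 0.15. The 3 members with 5 to 7 exons had -0.14 and all coding genes -0.08, and the 3 with 1 to 4 exons had -0.65 and all coding genes -0.23. Set against the median of coding genes in their own bin, 28 members were higher and 24 lower, with a median difference of 0.08. The pooled difference of 0.08 was thus smaller than that between the members and all genes, 0.50 against 0.13, but the roles went both ways around it. Within the bins the median difference was 0.24 in damage signalling, with 5 of 8 genes higher, 0.19 in the Fanconi group, with 6 of 8 higher, and 0.21 in nucleotide excision repair, with all 5 higher. Of these 5, ERCC2 and ERCC1 were higher by only 0.003 and 0.08, and their bin medians lay within their estimated counting intervals. The RecQ helicases had 0.13, with 3 of 4 higher. Homologous recombination had -0.02, with 6 of 13 higher, base excision and single-strand break repair -0.10, with 2 of 6 higher, and mismatch repair -0.19, with 1 of 4 higher. End joining had -0.32, and all 4 of its genes were lower, POLQ by only 0.06. The DNA-PK subunit PRKDC and the adaptor TP53BP1, which favours end joining, were placed in damage signalling. They lay 0.14 and 0.52 above their bins. Of coding genes with 18 or more coding exons, 9.85% passed the upper 2-fold limit, and RAD54L, TP53BP1 and WRN belong to this class.

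Some members departed from their exon bin. FANCB, with 8 coding exons, was 0.96 above the median of its bin, the widest gap upwards. ERCC3, with 16 coding exons, was 0.79 above, and RAD54L, with 18, was 0.74 above. MSH6, with 10, was 0.79 below its bin, XRCC2, with 3, was 0.65 below, and PALB2, with 13, was also 0.65 below. PARP1, with 23 coding exons, was 0.53 below. PRKDC, with 86 coding exons, the most of any member, was 0.14 above.

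Damage signalling had the highest median ratio of the roles, 0.74 over 8 genes, and all 8 ratios were above 0. With a floor of 20 FPKM its median was 0.68 and that of the Fanconi group 0.82, and with a pseudocount of 5 FPKM the RecQ helicases had 0.61 and the Fanconi group 0.60 against 0.57 for damage signalling. The order of these roles thus depended on the settings. The large kinases were all higher in the RIP. ATM, which responds to double-strand breaks, stood at 67.1 FPKM in the RIP against 35.7 FPKM in the input, a ratio of 0.89. ATR, which responds to stalled forks, stood at 33.5 FPKM in the RIP against 17.7 FPKM in the input, a ratio of 0.88, and its partner ATRIP at 7.69 FPKM in the RIP against 4.0 FPKM in the input, a ratio of 0.80. PRKDC, the catalytic subunit of DNA-PK, stood at 125 FPKM in the RIP against 77.8 FPKM in the input, a ratio of 0.68. The downstream kinases lay closer to the input. CHEK1 had 41.5 FPKM in the RIP against 36.7 FPKM in the input, and CHEK2 had 20.5 FPKM in the RIP against 19.4 FPKM in the input, ratios of 0.17 and 0.08. The scaffold MDC1 had 57.7 FPKM in the RIP against 49.9 FPKM in the input, a ratio of 0.21. Relative to the median gene CHEK2 had -0.05.

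Homologous recombination genes had the widest range of ratios, from 1.28 in RAD54L to -0.88 in XRCC2, with a median of 0.48 over 13 genes, 9 above 0 and 4 below. Within the MRN complex, which detects and trims broken ends, RAD50 stood at 90.3 FPKM in the RIP against 48.9 FPKM in the input, a ratio of 0.87. MRE11A, its nuclease, stood at 59.4 FPKM in the RIP against 34.3 FPKM in the input, a ratio of 0.77. NBN, the third subunit, stood at 24.5 FPKM in the RIP against 24.7 FPKM in the input, a ratio of -0.01, so the 3 mRNAs of this complex were not alike. The tumour suppressor BRCA1 had 80.0 FPKM in the RIP against 57.2 FPKM in the input, a ratio of 0.48, and its ring-finger partner BARD1 had 36.0 FPKM in the RIP against 23.9 FPKM in the input, a ratio of 0.57. BRCA2, a tumour suppressor of the same pathway, had 17.9 FPKM in the RIP against 12.1 FPKM in the input, a ratio of 0.52. The related genes XRCC3, RAD51C and XRCC2 went both ways, at 0.40, -0.50 and -0.88. RAD54B, related to RAD54L, had a ratio of 0.69, and the end-resection factor RBBP8 had 0.07.

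The Fanconi and crosslink repair members had a narrower spread, with all 8 ratios above 0 and a median of 0.64. This holds for the members only. In the further list described below, UBE2T and USP1 of this pathway had -0.87 and -0.51, while some others of it lay above 0. FANCA, the core subunit with the highest level, stood at 170.5 FPKM in the RIP against 86.4 FPKM in the input, a ratio of 0.97. FANCD2 and FANCI, the pair that the core ligase modifies, had ratios of 0.67 and 0.49. FANCI was the most abundant of the group, at 187 FPKM in the RIP against 133 FPKM in the input. The helicase BRIP1 had 63.5 FPKM in the RIP against 41.2 FPKM in the input, a ratio of 0.61. SLX4, a nuclease scaffold, stood at 9.28 FPKM in the RIP against 5.86 FPKM in the input, a ratio of 0.58. FANCM, a translocase that recruits the core complex, had the lowest ratio of the group at 0.31, with 15.2 FPKM in the RIP against 12.1 FPKM in the input.

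**Figure D3:**
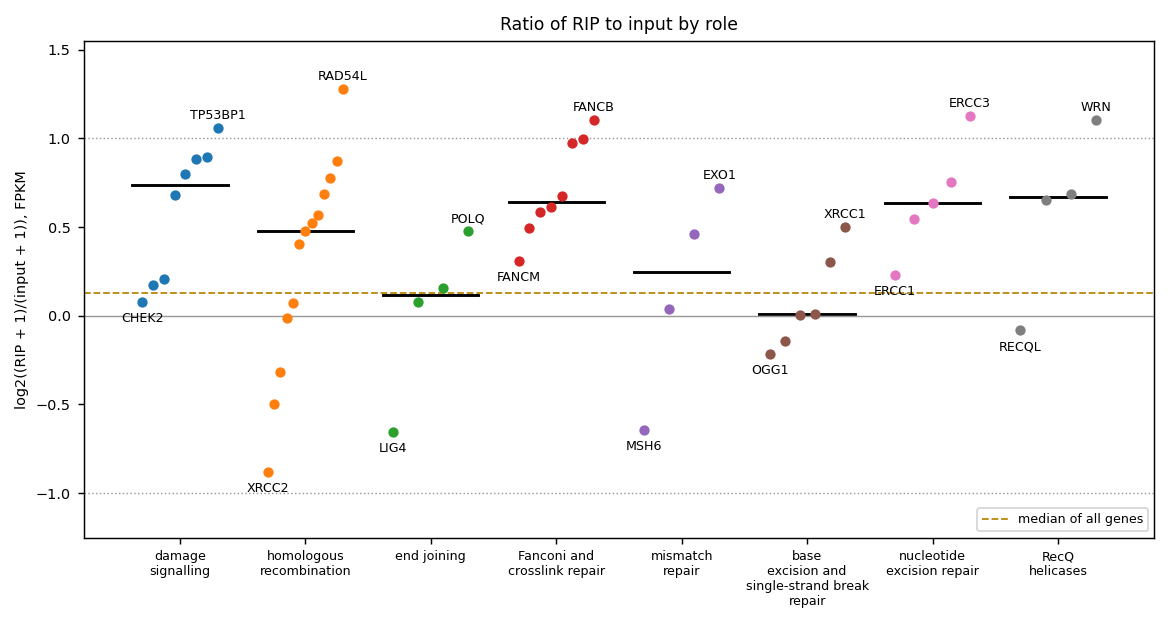
Ratio of RIP to input for each member by role, 1 point per gene, with black bars at the role medians, dotted lines at the 2-fold limits and a dashed line at the median of all genes, 0.13. Role medians run from 0.74 in damage signalling to 0.01 in base excision and single-strand break repair, and the 5 points above the upper dotted line lie in 5 roles.

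The nucleotide excision repair members all had ratios above 0, with a median of 0.63 over 5 genes. In the further list the XPC partners CETN2 and RAD23B had -0.56 and -0.54, while some others of this pathway lay above 0. The nuclease ERCC5 had 39.3 FPKM in the RIP against 22.9 FPKM in the input, a ratio of 0.75, and the damage sensor XPC had 32.8 FPKM in the RIP against 20.8 FPKM in the input, a ratio of 0.63. ERCC2, the other helicase of TFIIH, stood at 23.0 FPKM in the RIP against 15.5 FPKM in the input, a ratio of 0.54, less than the 1.13 of ERCC3. ERCC1, a nuclease subunit, had the lowest ratio at 0.23, with 25.03 FPKM in the RIP against 21.2 FPKM in the input. Among the RecQ helicases WRN was followed by RECQL4 at 0.68 and RECQL5 at 0.65. RECQL differed from them, with 31.97 FPKM in the RIP against 33.9 FPKM in the input, a ratio of -0.08 (-0.29 to 0.12).

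The end-joining, mismatch and base excision groups lay nearer to the input. End joining had a median of 0.12 over 4 genes, which turned to -0.01 when centred on the median gene and to -0.04 after rescaling. The Ku subunits that cap broken ends were the most abundant members in the input, and in the RIP only FANCI stood between them. XRCC6 stood at 239.8 FPKM in the RIP against 226.8 FPKM in the input, a ratio of 0.08, and XRCC5 at 182 FPKM in the RIP against 163 FPKM in the input, a ratio of 0.16. POLQ, the polymerase of an error-prone end-joining route, had 24.6 FPKM in the RIP against 17.4 FPKM in the input, a ratio of 0.48. Mismatch repair had a median of 0.25 over 4 genes that differed widely. It was 0.04 with a floor of 20 FPKM, 0.12 once centred on the median gene and 0.10 with rescaled libraries. The nuclease EXO1 stood at 63.1 FPKM in the RIP against 37.96 FPKM in the input, a ratio of 0.72, whereas MSH6 had -0.64. MSH3, which replaces MSH6 in sensing larger loops, had 19.6 FPKM in the RIP against 14.0 FPKM in the input, a ratio of 0.46. PMS2 had 14.6 FPKM in the RIP against 14.2 FPKM in the input, a ratio of 0.04.

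Base excision and single-strand break repair had the lowest median, 0.01 over 6 genes, which turned to -0.12 when centred on the median gene and to -0.15 after rescaling. PARP1, which signals nicks, stood at 139 FPKM in the RIP against 137 FPKM in the input, a ratio of 0.01, and the endonuclease APEX1 at 42.5 FPKM in the RIP against 42.4 FPKM in the input, a ratio of 0.00. The glycosylases among the members, UNG and OGG1, lay slightly below the input. UNG, which removes uracil, stood at 34.3 FPKM in the RIP against 37.96 FPKM in the input, a ratio of -0.14. OGG1, which removes oxidised guanine, had 12.4 FPKM in the RIP against 14.6 FPKM in the input, a ratio of -0.22 (-0.44 to 0.02). Glycosylases of the further list described below lay on both sides of the input, with ratios from -0.16 to 0.58. XRCC1, the scaffold of nick repair, had the highest ratio of the group at 0.50 (0.25 to 0.77), with 23.6 FPKM in the RIP against 16.3 FPKM in the input, and LIG3, its ligase partner, had 0.30.

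A further list of 76 repair and damage genes gave a comparison within the same pathways. Both lists were chosen with earlier results of these data known, so the comparison is a description and not an independent check. Of these, 74 were in the table and 71 passed the floor of 5 FPKM. Their median ratio was 0.24, lower than the 0.50 of the 52 members, with 46 above 0 and 25 below. At the 2-fold limit 1 (1.41%) was higher and 0 lower. The shares were 4.9% and 2.5% among all genes and 3.65% and 0.533% among protein-coding genes. Counts this small are near that background. The gene past the limit was RAD52, a strand-annealing protein, at 27.6 FPKM in the RIP against 13.1 FPKM in the input, a ratio of 1.02. Next were RAD9A, a subunit of the checkpoint clamp, at 24.4 FPKM in the RIP against 11.7 FPKM in the input, and UVSSA, a factor of transcription-coupled repair, at 7.36 FPKM in the RIP against 3.35 FPKM in the input. The lowest was UBE2T, the conjugating enzyme of the Fanconi pathway, at 29.1 FPKM in the RIP against 53.9 FPKM in the input, a ratio of -0.87. CETN2 stood at 15.9 FPKM in the RIP against 23.8 FPKM in the input, and RAD23B at 31.4 FPKM in the RIP against 46.2 FPKM in the input. Both encode partners of XPC, whose own ratio was 0.63. These further genes had a median of 11 coding exons, fewer than the 16.5 of the members, and relative to coding genes in the same exon bins 38 were higher and 33 lower, with a median difference of 0.04.

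**Figure D4:**
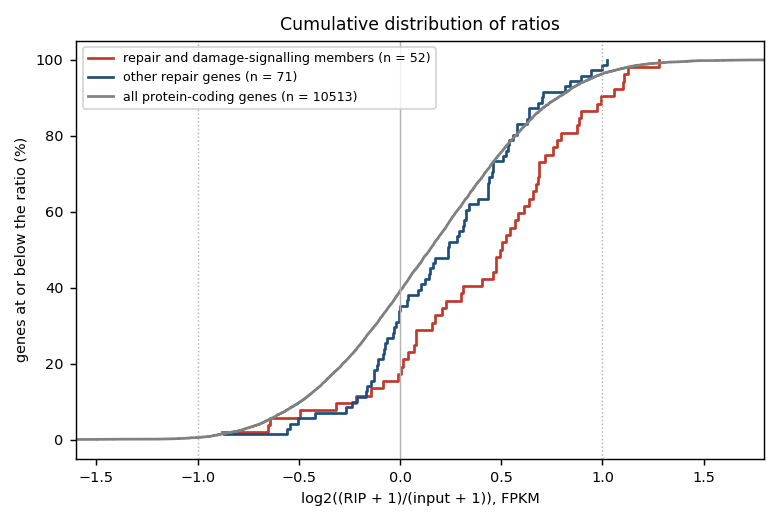
Cumulative share of genes by the ratio of RIP to input, for the 52 members in red, 71 other repair genes in blue and 10513 protein-coding genes in grey. The red curve lies to the right of the others over most of its course, with medians of 0.50, 0.24 and 0.15 in that order.

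A pair of further genes that work with members was chosen after their values had been seen. XRCC4, which stabilises LIG4, stood at 14.8 FPKM in the RIP against 14.9 FPKM in the input, a ratio of -0.01, against -0.65 for LIG4. USP1, which removes ubiquitin from FANCD2, stood at 46.7 FPKM in the RIP against 66.8 FPKM in the input, a ratio of -0.51, against 0.67 for FANCD2. In each of these pairs the ratio of 1 gene lay outside the counting interval of the other.

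Some values may include fragments of neighbouring or copied genes. Of the 52 members, 5 overlap another gene of the table on the same strand, among them ERCC5, which lies with BIVM (35.4 FPKM in the RIP against 21.6 FPKM in the input), and RAD54B, which lies with FSBP. A further 19 overlap only genes on the opposite strand. RAD54L overlaps LRRC41, at 51.5 FPKM in the RIP against 47.5 FPKM in the input, and TP53BP1 overlaps TUBGCP4, at 20.3 FPKM in the RIP against 14.8 FPKM in the input. The library kit keeps strand, but the strand setting used in counting is not given in the sources used here. PMS2 is uncertain because near-identical pseudogenes are in the table. Its copy PMS2CL stood at 24.7 FPKM in the RIP against 15.9 FPKM in the input, and PMS2P3 at 42.9 FPKM in the RIP against 22.6 FPKM in the input, higher than PMS2 itself.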

How the data were processed

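RNA of 1 RIP and 1 input library was analysed. Groups came from the sample titles. Per the submitters' processing notes, cutadapt 1.18, Trimmomatic 0.3, STAR 2.6.1, RSEM 1.2.31 and hg38 were used. Their settings, the gene annotation and any filter were not given in the sources used here. A single table was deposited by the authors. Its header names no unit, and its values were taken as FPKM made by the authors with RSEM, which the processing notes name. They carry decimals and add up to 1090243 (RIP) and 1512049 (input). FPKM is scaled by length and by library total, so abundant RNAs lower all other values.

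Depth was estimated by searching for the fragment number and mean fragment length that make the FPKM of genes with 1 transcript whole fragments. Of 148 RIP and 274 input genes, 62.2% and 62.0% lay within 0.15 of a whole fragment, against 43.9% and 37.8% with shuffled lengths. Depths are thus approximate. Fragments per member used the median annotated transcript length and were at least 235 in the RIP and 108 in the input. Intervals rest on them, so their widths follow annotation as well as depth.

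Genes with under 5 FPKM in both libraries were left out (1085). The ratio used a pseudocount of 1, and 2-fold was the limit. Annotation was GENCODE release 29 on GRCh38, matched by Ensembl identifier for 12983 genes. Named were members past or next to the limit, the 5 highest and lowest, the extremes of each role, and of the further list the 3 highest and lowest. The remaining members were added to complete each role. Members, lists and roles were chosen with earlier results of these data known. Other pseudocounts, floors, limits and scalings were tried. Rescaling left out small structured RNA classes, ribosomal RNA, mitochondrially encoded genes, TOP3B and genes without annotation, and set the summed FPKM of the rest equal. The calculation of the ratio was checked on simulated fragments with 4-fold changes, larger than any among the members. The simulation held no variation between libraries beyond counting, so it cannot show how reliable differences near 2-fold are. Calculations used Python 3.11.15, numpy 2.4.6, scipy 1.17.1, pandas 2.3.3 and matplotlib 3.10.9. Some genes of the further list are not reported here by name.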

Additional observations from a re-analysis of the deposited data

How the results depend on the processing

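No paired analysis was possible because the RIP and the input are 1 library each. Causes of the shifts were not tested. Against 5 higher and 0 lower members, pseudocount 0.1 gave 6 higher, pseudocount 5 gave 2 higher, centring on the median gene 1 higher and 1 lower, rescaling without abundant RNA classes gave 1 and 1, the 1.5-fold limit 21 and 3, and the 4-fold limit 0 higher. The members' median of 0.50 ran from 0.34 after rescaling to 0.56 with a floor of 20 FPKM. Against 1 higher and 0 lower further repair genes, pseudocount 0.1 gave 3 higher, pseudocount 5, centring, rescaling and the 4-fold limit gave 0 higher, rescaling gave 1 lower, and the 1.5-fold limit 12 and 1.

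The whole table had 588 higher genes, 300 lower genes and a median of 0.13. For it, pseudocount 0.1 gave 745, 365 and 0.14, and no floor 638, 305 and 0.12. Pseudocount 5 gave 300, 180 and 0.10, and the floor of 20 FPKM 352, 157 and 0.21. Centring gave 365 higher genes, 450 lower and a median of 0, so that lower genes came to outnumber higher ones, and rescaling 328 higher, 476 lower and -0.023. The 1.5-fold limit gave 2386 and 1222, the 4-fold limit 79 and 84, and protein-coding genes alone 384, 56 and 0.15. For the 52 members and the further repair genes named, 300 ratios were recomputed under other pseudocounts and scalings. Of these, 257 stayed within their estimated counting intervals and 43 moved outside them, counts that depend on the interval widths. A floor leaves the ratio of a single gene as it is. Of the role medians, end joining and base excision repair changed sign under both planned scalings, and mismatch repair moved to 0.04 with a floor of 20 FPKM. Dividing by the fragments left without abundant RNA classes (added after seeing the data) gave 561 higher and 308 lower genes, and base excision repair again turned just below 0, to -0.0026. The fewest estimated fragments among the members were those of PALB2 in the RIP, 235, and MSH3 in the input, 108. These estimates follow annotated transcript lengths, so they do not show that depth was lowest for these members.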
